A study of Mus musculus with 25 samples.

Results

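The genes of glycolysis and of the hypoxia response were followed in ovarian follicles of the mouse, freshly isolated and then over 8 days in alginate gel. The set was a list of 34 gene symbols covering glucose and lactate transporters, enzymes of glycolysis and lactate formation, regulators of pyruvate use, the hypoxia-inducible factor subunit Hif1a and target genes of that factor. Probes were taken by their symbol from the deposited signal table. Of the 34 genes, 31 had a probe there (45 of the table's 25697 probes). The other 3, Hk2, Gpi1 and Ldhb, were not analysed here. Of these 31 genes, 29 passed the detection filter, and Bnip3 and Slc16a1 were detected on no follicle array. The 29 genes stood among 10688 tested.

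Each array held RNA from a pool of 20 to 40 follicles of CD-1 mice, 16 days old, picked by mechanical isolation at a diameter of 150 to 180 µm, when several layers of granulosa cells surround the oocyte. Day 0 (5 arrays) was taken before culture. Days 2, 4, 5, 6 and 8 (3 arrays each) were follicles held singly in alginate in 100 µl of medium, with part of it exchanged every 2 days. The medium carried 10 mIU/ml of recombinant FSH, 3 mg/ml of bovine serum albumin, 1 mg/ml of fetuin, 5 µg/ml of insulin, 5 µg/ml of transferrin and 5 ng/ml of selenium. Pools were freed with alginate lyase and frozen. The labels speak of 3 independent experiments, but they do not say which arrays share one. The day 0 titles mark those arrays as numbered repeats of a reference. The p-values thus measure the spread between these arrays, which for day 0 may be technical. The oocyte (10 of 10 tested markers) and granulosa cells (8 of 8) were detected at day 0, as were all 6 theca markers tested. Between 44.2% and 51.3% of probes were detected on an array, and values below are normalized log2 signals unless said otherwise.

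Glycolysis splits glucose into pyruvate. Lactate dehydrogenase turns pyruvate into lactate, and pyruvate dehydrogenase turns it into acetyl-CoA inside the mitochondrion. When oxygen is low, hydroxylation of the hypoxia-inducible factor (HIF) slows, its alpha subunit is stable, and the factor raises transcription of glucose transporters, most glycolytic enzymes and a group of other targets. In the follicle, granulosa cells carry out glycolysis and pass pyruvate to the oocyte, which uses glucose poorly, and the granulosa layers, which hold no vessels, receive oxygen by diffusion.

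HIF binds the core letters ACGTG or GCGTG, which read CACGT or CACGC on the other strand. These letters were searched on both strands in the 300 bases around each start site (250 before, 50 after) of the RefSeq promoter table of GRCm38.p6, where ACGTG also lies inside the E-box CACGTG. Of the 34 genes, 32 had a promoter there, and Slc2a3 and Ndrg1 did not. For a gene with several entries the one with the lowest start coordinate was used. A match lay in 28 of 32 (87.5%), in 13 of 17 enzyme promoters (76.5%) and in 8 of 8 promoters of HIF targets. It lay in 61.1% of the 8176 promoters of genes tested on the arrays and 43.4% of all 27025. The shares were the same for the members when matches inside CACGTG were left out, and 57.2% and 40.1% for the other promoters. The 17 enzymes here include Hk2, Gpi1 and Ldhb, and the 8 targets include Bnip3 and lack Ndrg1. They are thus not the same genes as the enzymes and targets tested on the arrays. The 250 bases before the start are shown for 5 genes with different courses in culture. Ankrd37 (chr8:45999851-46000100, minus strand) and Car9 (chr4:43506776-43507025, plus strand) are HIF targets, Pdk4 (chr6:5496279-5496528, minus strand) gave the largest fall, and Pfkl (chr10:78009808-78010057, minus strand) and Tpi1 (chr6:124814159-124814408, minus strand) are enzymes with and without a match. Sequences run 5′ to 3′ on the strand of the gene, with matches in capitals.
Ankrd37: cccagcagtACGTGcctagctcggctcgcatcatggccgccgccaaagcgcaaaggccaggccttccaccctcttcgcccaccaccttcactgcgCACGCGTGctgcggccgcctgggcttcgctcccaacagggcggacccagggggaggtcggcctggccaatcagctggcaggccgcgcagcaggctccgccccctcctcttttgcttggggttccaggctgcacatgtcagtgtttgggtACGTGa
Car9: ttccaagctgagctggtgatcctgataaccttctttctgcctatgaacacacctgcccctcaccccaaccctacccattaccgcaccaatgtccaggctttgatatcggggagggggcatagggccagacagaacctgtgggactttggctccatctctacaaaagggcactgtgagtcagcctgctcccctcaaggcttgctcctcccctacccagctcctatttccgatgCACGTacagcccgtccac
Pdk4: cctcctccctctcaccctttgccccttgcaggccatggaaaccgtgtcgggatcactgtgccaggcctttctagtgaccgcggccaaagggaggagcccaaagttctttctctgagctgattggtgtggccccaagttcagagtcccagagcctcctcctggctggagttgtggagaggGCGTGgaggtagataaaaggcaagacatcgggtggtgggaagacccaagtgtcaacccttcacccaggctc
Pfkl: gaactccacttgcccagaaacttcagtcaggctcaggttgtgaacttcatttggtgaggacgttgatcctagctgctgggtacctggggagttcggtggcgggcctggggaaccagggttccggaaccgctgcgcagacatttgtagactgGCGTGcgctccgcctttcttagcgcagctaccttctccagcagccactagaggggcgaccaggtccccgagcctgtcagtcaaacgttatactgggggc
Tpi1: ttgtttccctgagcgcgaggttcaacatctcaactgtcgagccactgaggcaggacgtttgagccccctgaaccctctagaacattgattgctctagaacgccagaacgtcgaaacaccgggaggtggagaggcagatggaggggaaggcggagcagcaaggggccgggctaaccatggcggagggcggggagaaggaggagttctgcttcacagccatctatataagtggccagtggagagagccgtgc
Ankrd37 held 4 matches, of which a pair overlap in the run CACGCGTG, and Car9, Pdk4 and Pfkl held 1 each in this window. Tpi1 held none, and its change at day 8 against day 2 had the smallest adjusted p of the 29 genes (1.31e-06). A match is a description of letters and shows no binding.

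Over the culture the mean signals of the 14 enzymes and of the 8 HIF targets took different courses. The enzyme mean was lowest at day 2 and higher from day 4 on, whereas the mean of the HIF targets was highest before culture. By the adjusted p, 4 of the 8 were lower at day 8 than at day 0, against 22.8% of all genes. Adm, among these 4, passed the detection filter only through day 0, so the filter favoured its fall. The mean signal of the 14 enzymes tested was 9.73 ± 0.15 before culture (SD, n = 5). It was 9.46 ± 0.05 after 2 days and 10.11 ± 0.14 after 4 days (n = 3 on each cultured day). It then stood at 10.10 ± 0.09 on day 5, 10.32 ± 0.20 on day 6 and 10.34 ± 0.21 on day 8. The 8 HIF targets tested averaged 7.48 ± 0.12 before culture, 6.58 ± 0.07 after 2 days and 6.45 ± 0.06 after 4 days. Their means were 6.50 ± 0.16 on day 5, 6.63 ± 0.12 on day 6 and 6.90 ± 0.29 on day 8. In the enzyme mean every array from day 4 onward but the lowest at day 4 (9.96) lay above all 5 day 0 arrays (highest 9.99). Every cultured array lay below all day 0 arrays in the target mean (at most 7.20 in culture, at least 7.30 at day 0). The mean over day 2 was the lowest of the 6 days for 10 of 14 enzymes, and the mean over day 0 was the highest for 6 of 8 HIF targets. The same shares over all genes were not counted, so it is not known whether these counts stand out.

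**Figure D1:**
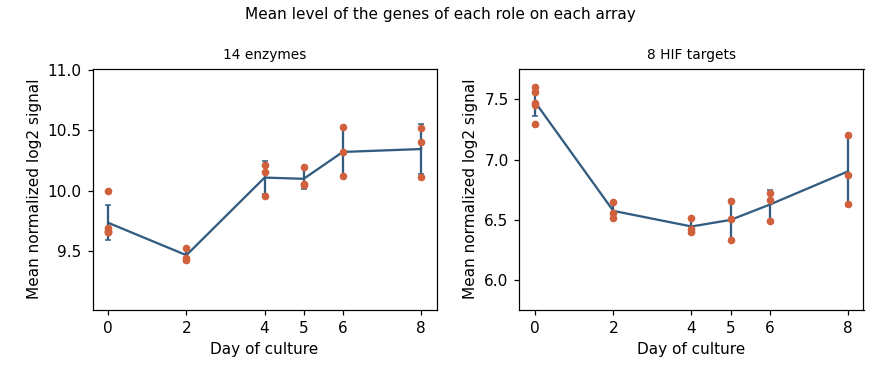
Mean normalized log2 signal of the 14 enzymes (left) and the 8 HIF targets (right) on each array (points), by day of culture, with the mean of the day (line) and SD (bars). Enzymes have their low at day 2 and stand above day 0 from day 5 on; HIF targets drop by day 2 and all cultured arrays stay at or below 7.20, under the lowest day 0 array at 7.30.

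In the moderated F test over the 6 days 22 of the 29 genes differed, against 50% of all genes tested. The 22 were 11 of 14 enzymes, 6 of 8 HIF targets, both glucose transporters, Pdk1, Pdk4 and Hif1a. At day 2 against day 0, 1 of 29 rose and 13 fell (12.1% and 13.1% of all genes, 25.1% in all), with a median log2 change of -0.44. At day 8 against day 2, 16 rose and 1 fell (10.1% and 12.3% of all genes, 22.4% in all), with a median of 0.71. At day 8 against day 0, 9 rose and 7 fell (20.6% and 22.8% of all genes, 43.4% in all), with a median of 0.10. The median over all genes was within 0.01 of 0 in each comparison. These 3 comparisons share arrays, so a low value at day 2 enters the first with one sign and the second with the other.

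By role the split was as follows. Among the 14 enzymes, 1 rose and 6 fell at day 2 against day 0 (median -0.36). Of the same 14, 11 rose and 0 fell at day 8 against day 2 (median 0.78), and 7 rose and 0 fell at day 8 against day 0 (median 0.43). Among the 8 HIF targets, 0 rose and 4 fell at day 2 against day 0 (median -0.61). Of these 8, 2 rose and 1 fell at day 8 against day 2 (median 0.22), and 0 rose and 4 fell at day 8 against day 0 (median -0.55). The size of the HIF target medians differed between alternatives. The median at day 8 against day 0 was -0.228 without background correction. It was -0.121 in the authors' log2 table, where the median at day 2 against day 0 was -0.205. That table lacks the brightest Car9 probe, so its medians do not rest on the same probes. The 6 enzymes that fell by day 2 (Eno2, Ldha, Pfkl, Pfkp, Pkm2 and Tpi1) were all higher at day 8 than at day 2. Pkm2 and Tpi1 then stood above day 0. The other 4 did not pass against it, although a second probe of Pfkp was above day 0. Second probes of Pfkl and Pfkp did not pass at day 2 against day 0 (-0.26 and 0.22). The difference between the roles was not tested, because the genes were chosen with results known. With the 5 day 0 arrays averaged and counted as 1 sample, 5 of 29 changed at day 2 (0 rose, 5 fell) and 5 at day 8 against day 0 (2 rose, 3 fell). In that fit 4.66% and 19.8% of all genes changed, so the share of members at day 8 (5 of 29) was no larger than that of all genes.

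**Figure D2:**
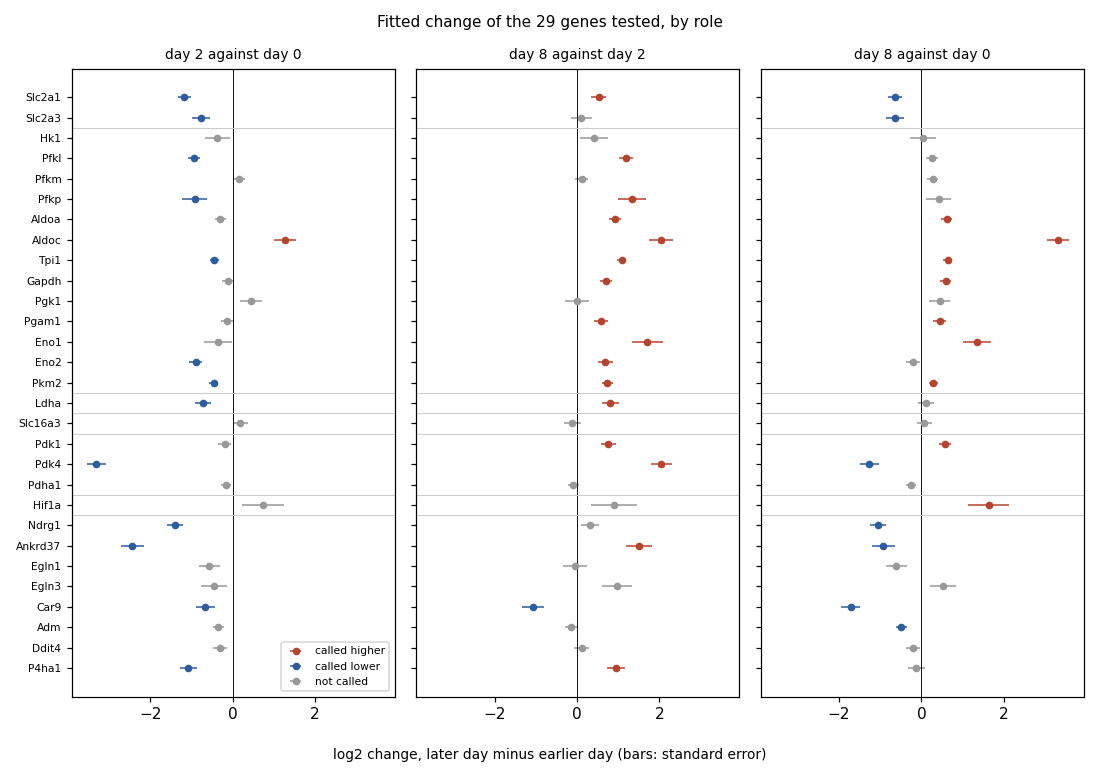
Fitted log2 change of each of the 29 genes (points, later day minus earlier day) with its standard error (bars) in 3 comparisons, rows grouped by role from glucose transport to HIF targets; red points rose, blue points fell and grey points did not pass an adjusted p of 0.05. Most enzyme rows lie left of 0 at day 2 and right of 0 at day 8 against day 2, and no enzyme is blue at day 8 against day 0 while Ndrg1, Ankrd37, Car9 and Adm are.

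Both glucose transporters were lower at day 2 and at day 8 than before culture. Slc2a1 (GLUT1), the carrier for basal glucose uptake in most cells, had signals of 9.35, 9.28 and 9.09 on the day 2 arrays, against 10.33, 10.30, 10.40, 10.62 and 10.40 on the day 0 arrays. All day 2 arrays lay below all day 0 arrays, a 2.25-fold lower mean (log2 change -1.17, SE 0.16, adjusted p = 2.81e-05). At day 8 the signals of 9.87, 9.43 and 10.02 still lay below all day 0 arrays (-0.64, SE 0.16, adjusted p = 0.00347). They lay above all day 2 arrays, by a difference of 0.53 whose adjusted p of 0.0443 passed in only 14 of 33 alternatives. Slc2a3 (GLUT3), a carrier with high affinity for glucose, had 6.44, 6.68 and 6.69 at day 2 against 7.14, 6.98, 7.50, 7.57 and 7.63 at day 0 (-0.76, SE 0.22, adjusted p = 0.0154). It did not pass between day 8 and day 2 (0.11). Its fall at day 2 was lost without day 2 replicate 1 (adjusted p = 0.0718). Arrays of day 8 and day 0 overlapped, and its fall at day 8 against day 0 (-0.65, adjusted p = 0.0219) was lost without day 8 replicate 2 (adjusted p = 0.226) or day 0 replicate 5 (adjusted p = 0.0522). Of the lactate carriers, Slc16a1 was detected on no array, and Slc16a3, the exporter MCT4, stayed between 4.95 and 5.85 on all arrays and passed in no comparison.

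**Figure D3:**
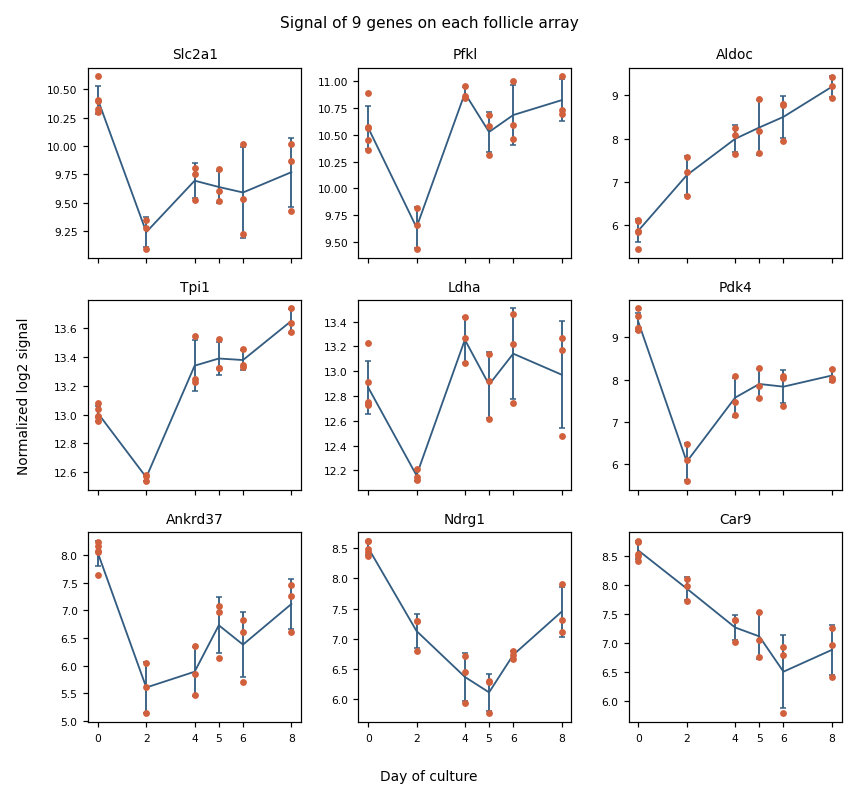
Normalized log2 signal of 9 genes on each follicle array (points) by day of culture, with the mean of the day (line) and SD (bars); each panel has its own vertical range. Slc2a1, Pfkl, Tpi1, Ldha, Pdk4 and Ankrd37 have their lowest mean at day 2. Aldoc has its lowest mean at day 0 and its highest at day 8. Ndrg1 and Car9 reach their lowest mean at day 5 and day 6.

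In the steps of glycolysis that consume ATP the 3 phosphofructokinase genes, which encode the committed step, took different courses by their brightest probes. Other probes of the same gene differed from these as well. Pfkl, the liver-type subunit, had 9.82, 9.43 and 9.65 at day 2 against 10.45, 10.36, 10.57, 10.89 and 10.57 at day 0, with no overlap (-0.93, SE 0.15, adjusted p = 0.000136). At day 8 it had 10.70, 11.05 and 10.73, all above the day 2 arrays (1.19, SE 0.17, adjusted p = 3.11e-05), and it did not pass against day 0 (0.26). A second Pfkl probe, detected on all 20 arrays, moved by -0.26 and -0.01 in these comparisons and passed in neither, so the probes of this gene disagree.

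Pfkp, the platelet-type subunit, had 7.82, 7.01 and 7.01 at day 2 against 8.03, 8.06, 8.11, 8.96 and 7.85 at day 0, and 8.14, 8.93 and 8.79 at day 8. It was 2.53-fold higher at day 8 than at day 2 (log2 change 1.34, SE 0.34, adjusted p = 0.00695), and a second probe, detected on all 20 arrays, rose as well (0.76, adjusted p = 0.0022). The second probe was also higher at day 8 than at day 0 (0.98, adjusted p = 2.0e-05), where the first did not pass (0.42). Its fall at day 2 (-0.92, adjusted p = 0.0316) did not appear with the second probe (0.22, adjusted p = 0.313). It was lost without day 0 replicate 4 (adjusted p = 0.0768), day 2 replicate 2 (0.139) or day 2 replicate 3 (0.135). Pfkm, the muscle-type subunit, lay between 9.92 and 10.60 on all arrays and passed in no comparison. Of its other probes, a dimmer one detected on 15 arrays rose at day 8 against day 0 (0.78, adjusted p = 0.0247) and the remaining one did not pass (0.23). Hk1, the hexokinase that traps glucose in the cell, lay between 4.81 and 6.62 and passed in none.

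The aldolases, which split the 6-carbon sugar, both rose by day 8, by different amounts. Aldoc (aldolase C, best known from brain) had signals of 5.46 to 6.14 on the 5 arrays before culture (median 5.87), 6.68, 7.57 and 7.22 after 2 days, and 7.65, 8.08 and 8.26 after 4 days. On day 5 it had 8.91, 8.18 and 7.67, on day 6 it had 7.94, 8.80 and 8.77, and on day 8 it had 9.42, 9.22 and 8.94. Its day means stood in the order of the days. The day 8 mean was 9.93-fold above day 0 (log2 change 3.31, SE 0.27, adjusted p = 7.44e-09) and 4.1-fold above day 2 (2.04, SE 0.30, adjusted p = 4.42e-05). It was the only enzyme that rose at day 2 against day 0 (1.27, SE 0.27, adjusted p = 0.00147), a call not made with the authors' log2 table (0.35). Aldoa, the main aldolase of most tissues, had 12.52, 13.02 and 12.86 at day 8 against 12.00, 11.77 and 11.88 at day 2 (0.91, SE 0.14, adjusted p = 9.89e-05). Its day 8 arrays also lay above all 5 day 0 arrays (highest 12.43, change 0.61, adjusted p = 0.000647).

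Tpi1, triose phosphate isomerase, which interconverts the 3-carbon products, had 12.58, 12.58 and 12.54 at day 2 against 13.08, 12.95, 12.99, 13.04 and 12.98 at day 0 (-0.44, SE 0.10, adjusted p = 0.00372), and 13.64, 13.73 and 13.57 at day 8. The day 8 arrays lay above every array of day 2 (2.12-fold, SE of the log2 change 0.12, adjusted p = 1.31e-06) and of day 0 (1.56-fold, adjusted p = 5.01e-05). Another probe of the gene moved alike (-0.59, 1.14 and 0.55 at day 2 against day 0, day 8 against day 2 and day 8 against day 0). The remaining probe of Tpi1 passed in none of the comparisons.

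The steps of glycolysis that yield ATP and pyruvate were higher at day 8 than at day 2 in all genes of the set tested but Pgk1. Outside the set Eno3, the muscle enolase, did not pass, with means of 6.26 at day 8 and 6.82 at day 2 (-0.56, adjusted p = 0.141). Gapdh, the dehydrogenase often used as a reference transcript, had 12.85, 13.47 and 13.39 at day 8 against 12.42, 12.56 and 12.60 at day 2, a 1.63-fold rise (0.71, SE 0.15, adjusted p = 0.00206). It stood 1.5-fold above day 0 (adjusted p = 0.0017). Pgam1, phosphoglycerate mutase, rose by 0.58 (SE 0.17, adjusted p = 0.0167), a call lost without day 2 replicate 2 (adjusted p = 0.097), day 2 replicate 3 (0.0691) or day 8 replicate 2 (0.0538). Pgk1, phosphoglycerate kinase and a textbook HIF target, was represented by a dim probe with signals of 4.86 to 5.94. The probe was detected on 6 of 20 arrays and on none at day 0 and day 6, so its course was not measured well.

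Eno1, the enolase of most tissues, had the largest rise of the 29 genes between day 2 and day 4. Its signals were 13.35, 13.18 and 12.53 at day 4 against 11.77, 11.00 and 11.11 at day 2 (3.31-fold, log2 change 1.73, SE 0.38, adjusted p = 0.00593). At day 8 it had 12.21, 13.33 and 13.45, a rise of 1.70 over day 2 (SE 0.38, adjusted p = 0.00232) and of 1.35 over day 0 (SE 0.34, adjusted p = 0.00277). The day 8 arrays overlapped with day 0 through day 8 replicate 1 (12.21) and day 0 replicate 4 (12.38), and the other day 0 arrays held 11.37, 11.47, 11.52 and 11.49.

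Eno2, the neuronal enolase, had 5.95, 6.48 and 6.11 at day 2 against 7.28, 6.98, 6.81, 7.12 and 7.21 at day 0 (-0.90, SE 0.16, adjusted p = 0.000363). It stayed low at day 4 with 6.04, 6.3 and 6.21. It had 7.17, 6.62 and 6.82 at day 8, above day 2 by 0.69 (adjusted p = 0.0081, and 0.052 without day 8 replicate 1), and did not pass against day 0 (-0.21). Pkm2, pyruvate kinase (current symbol Pkm; the probe label does not show which isoform was read), fell at day 2 to 11.74, 11.73 and 11.90 against 12.18 to 12.30 at day 0 (-0.45, SE 0.11, adjusted p = 0.00459). At day 8 it had 12.31, 12.69 and 12.59, which was 1.67-fold above day 2 (adjusted p = 0.000156). It was 1.22-fold above day 0, where the adjusted p of 0.0393 passed in 22 of 32 alternatives.

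Ldha, the lactate dehydrogenase subunit that favours lactate and a HIF target, was low at day 2 and higher again later. It had 12.15, 12.12 and 12.21 at day 2 against 12.75, 12.73, 12.73, 13.22 and 12.91 at day 0 (-0.71, SE 0.19, adjusted p = 0.00976). At day 4 the signals were 13.43, 13.26 and 13.06, 2.13-fold above day 2 (adjusted p = 0.00272), and at day 8 they were 12.48, 13.27 and 13.17. The day 8 mean was above day 2 (0.81, adjusted p = 0.00896, and 0.0553 without day 8 replicate 2) and did not pass against day 0 (0.10).

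The genes that steer pyruvate held the largest fall of the set. Pdk4, a kinase that switches off pyruvate dehydrogenase and is known to rise in fasting and with glucocorticoids, had 5.59, 6.1 and 6.47 at day 2 against 9.18, 9.23, 9.5, 9.23 and 9.69 at day 0. No array of these days came near the other group, and the mean was 9.92-fold lower (log2 change -3.31, SE 0.23, adjusted p = 3.92e-09). By day 4 it had 7.17, 7.47 and 8.08, and at day 8 it had 8.03, 8.00 and 8.26. The day 8 mean was 4.12-fold above day 2 (adjusted p = 8.63e-06) and 2.41-fold below day 0 (adjusted p = 0.000163).

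Pdk1, the kinase of the same family that HIF induces, did not pass at day 2 against day 0 (-0.19). It had 8.40, 8.57 and 8.23 at day 4 against 7.65, 7.28 and 7.49 at day 2 (0.93, SE 0.17, adjusted p = 0.00189). At day 8 it had 8.24, 8.50 and 7.96, above day 2 (0.76, adjusted p = 0.0029) and above all 5 day 0 arrays (7.38 to 7.87, a change of 0.57, adjusted p = 0.00502). Pdha1, the catalytic subunit that both kinases act on, lay between 9.20 and 9.86 on all arrays and passed in none of the 7 comparisons.

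Hif1a, the alpha subunit of HIF itself, did not fall with the targets. It had 8.28, 8.98 and 9.63 at day 8 against 7.22, 6.94, 7.43, 8.19 and 6.88 at day 0, with no overlap (3.10-fold, log2 change 1.63, SE 0.50, adjusted p = 0.0121). The call was lost without day 8 replicate 3 (1.30, adjusted p = 0.0819), and arrays of one day spread widely, as at day 6 with 10.39, 8.41 and 8.83. Day 6 replicate 1, the highest of these, stood apart more generally. It had the lowest mean of the 10 oocyte markers of all arrays (8.78, against 9.96 and 9.76 on the other day 6 arrays), the lowest signal of Car9 (5.79) and a high one of Eno1 (14.31). Without it all 59 calls of members were kept and 22 of 29 genes differed over the 6 days. HIF is regulated mainly through the stability of the protein, which was not measured.

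The HIF target Ankrd37, an ankyrin repeat protein, had the largest fall of the 8 at day 2. It had 5.14, 5.62 and 6.05 at day 2 against 8.23, 8.06, 8.08, 7.65 and 8.16 at day 0 (5.39-fold lower, log2 change -2.43, SE 0.29, adjusted p = 3.64e-06). Of the day 2 arrays, 1 of 3 was not above background. At day 8 it had 7.46, 7.26 and 6.61, 2.85-fold above day 2 (adjusted p = 0.00167) and 1.89-fold below day 0 (adjusted p = 0.0133, and 0.107 without day 8 replicate 3).

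Ndrg1, a protein induced by hypoxia and other stress, had 6.80, 7.29 and 7.30 at day 2 against 8.44, 8.62, 8.63, 8.38 and 8.48 at day 0 (-1.39, SE 0.19, adjusted p = 2.75e-05). Its signals were lower still at 6.45, 5.93 and 6.71 on day 4, and were 6.29, 6.27 and 5.75 on day 5. On day 8 they stood at 7.91, 7.31 and 7.12, all below day 0 (-1.07, SE 0.19, adjusted p = 0.000161). P4ha1, a collagen prolyl hydroxylase subunit, fell at day 2 to 5.64, 6.17 and 5.92 against 7.02, 7.09, 6.76, 7.10 and 6.93 at day 0 (-1.07, SE 0.20, adjusted p = 0.00056). It had 7.09, 6.65 and 6.83 at day 8, 1.93-fold above day 2 (adjusted p = 0.00422) and did not pass against day 0 (-0.12).

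Car9, a membrane carbonic anhydrase and a standard marker of hypoxia, was lower at day 8 than at day 2 and at day 0. The 5 arrays before culture held 8.42 to 8.78 (median 8.54), those after 2 days 7.73, 7.99 and 8.11, and those after 4 days 7.40, 7.02 and 7.39. On day 5 it had 7.54, 7.06 and 6.75, on day 6 it had 5.79, 6.93 and 6.80, and on day 8 it had 7.26, 6.98 and 6.42. The day 8 mean was 3.29-fold below day 0 (log2 change -1.72, SE 0.24, adjusted p = 7.46e-06) and 2.09-fold below day 2 (adjusted p = 0.00628). The other probes of Car9 were lower at day 8 than at day 0 too (adjusted p = 1.11e-06 and 0.00426), and neither was above background on any day 8 array. The step at day 2 alone (-0.66, adjusted p = 0.0492) passed in 15 of 31 alternatives.

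Adm, which encodes the vasodilator adrenomedullin, was not above background on any array of days 2, 4, 5 and 8. It was at least 1.11-fold lower at day 8 than at day 0 (means 5.11 and 5.59, adjusted p = 0.00509), where 4 of 5 arrays were above background. Arrays of these days overlapped through day 0 replicate 4 (5.18) and day 8 replicate 3 (5.21). Adm met the detection filter only through its day 0 arrays, which favoured a fall from that day. Egln1 and Egln3, the prolyl hydroxylases that mark HIF for breakdown, and Ddit4, an inhibitor of mTORC1 induced by stress, passed in no comparison between days. The other probes of Egln1 did pass as lower at day 2 than at day 0 (adjusted p = 0.0479 and 0.0246), and they were above background on 0 and 1 of the 3 day 2 arrays. The first of these probes met the detection filter only through day 0, so the filter favoured its fall. Egln3 had 7.54, 5.72 and 5.84 at day 8 against 5.62, 5.24 and 5.32 at day 2 (0.97, adjusted p = 0.0582), with 1 array far above the others, and passed in the F test. Ddit4 lay between 9.20 and 10.27 on all arrays.

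Most of the rise of the enzyme mean after day 2 took place by day 4. In this step 11 of the 29 genes rose and 1 fell (3.05% and 5.34% of all genes, 8.39% in all). The 11 were 9 enzymes, Pdk1 and Pdk4, and the 1 was Ndrg1 (-0.77, adjusted p = 0.0334). The median change was 0.69 for the enzymes and -0.03 for the HIF targets. The later steps gave no call among the 29 with limma after Benjamini-Hochberg adjustment. At day 5 against day 4, 0 rose and 0 fell (0.543% and 0.412% of all genes, 0.954% in all). At day 6 against day 5, 0 rose and 0 fell (0.711% and 0.627%, 1.34% in all). At day 8 against day 6, 0 rose and 0 fell (0.477% and 0.29%, 0.767% in all). At an unadjusted p under 0.05 these steps had 2, 3 and 6 of the 29 (10.9%, 14.8% and 10.9% of all genes), and with array weights 1, 1 and 0 by the adjusted p. Ndrg1, Pfkp, Gapdh and Pgam1 lost their call at day 4 against day 2 without some single arrays, and counts without each array in turn ran between 8 and 13.

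Arrays of one day differed along an axis that Hif1a and Car9 follow in opposite directions, as many other genes do. The share of probes detected was set against each gene's signal after the mean of the day was taken off both. The test was a 2-sided permutation within days with 100000 resamples over 20 arrays, with p-values adjusted over all 10688 genes. By Pearson's r 5 of the 29 genes passed, against 13.6% of all genes, so the count is near the background and says nothing particular about the set. Hif1a rose with the share (r = 0.80, rho = 0.81, permutation p = 0.00043 and 0.00062, adjusted p = 0.0244 and 0.0173). So did Eno1 (r = 0.65, rho = 0.77, adjusted permutation p = 0.0458 and 0.019) and Pfkp (r = 0.63, rho = 0.72, adjusted permutation p = 0.0467 and 0.0297). Car9 went the other way (r = -0.88, rho = -0.87, permutation p = 0.00079 and 0.00048, adjusted p = 0.0264 and 0.0165), with Ankrd37 (r = -0.87, rho = -0.89, adjusted permutation p = 0.0244 and 0.0126). Without the 2 arrays farthest from the median of the share (day 5 replicate 3 and day 6 replicate 1), r was 0.73 for Hif1a, 0.54 for Eno1, 0.53 for Pfkp, -0.84 for Car9 and -0.80 for Ankrd37.

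**Figure D4:**
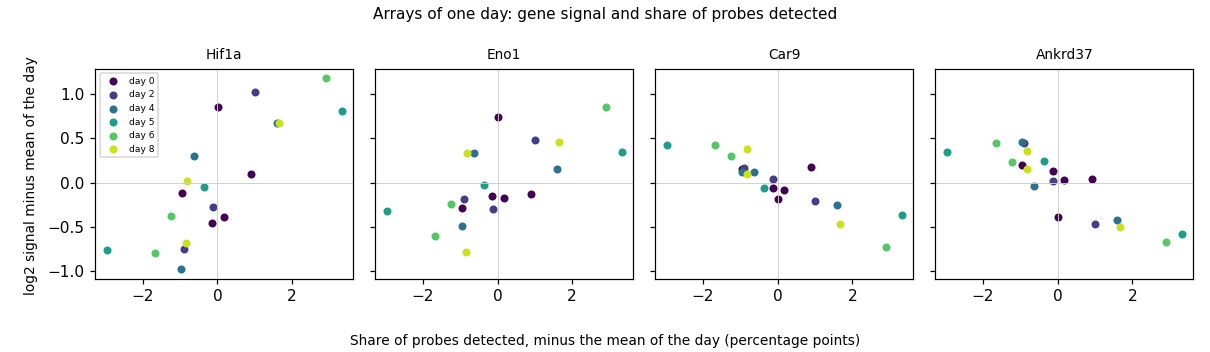
Signal of Hif1a, Eno1, Car9 and Ankrd37 on each of the 20 follicle arrays against the share of probes detected (percentage points), both after subtraction of the mean of the day; colours mark days. Hif1a and Eno1 rise with the share (r of 0.80 and 0.65), and Car9 and Ankrd37 fall with it (r of -0.88 and -0.87).

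The first component of the deviations within days over all 10688 genes held 40.6% of their variance and correlated at 0.83 with the share detected. For 14.9% of all genes r was beyond 0.7 in size, and for 5 of the 29. With the share as a term in the fit, an alternative chosen after seeing the data, all 59 calls of members in the comparisons were kept. In that fit Hif1a also passed at day 8 against day 2 (1.29, adjusted p = 0.0101) and at day 4 against day 2 (1.26, adjusted p = 0.0233), and Ankrd37 passed at day 8 against day 6 (0.75, adjusted p = 0.0408). Car9 (-0.94, adjusted p = 0.000574) and Slc2a1 (0.54, adjusted p = 0.0424) passed there at day 4 against day 2, and Egln1 (adjusted p = 0.0419) and Adm (adjusted p = 0.0481) passed as lower at day 2 than at day 0. What the share of probes detected stands for was not tested.

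Other genes of the same pathways, from lists that held no member of the set, were split as follows. Of 22 further genes of glycolysis, gluconeogenesis and pyruvate handling tested, 3 rose and 3 fell at day 2 against day 0. At day 8 against day 2, 3 rose and 2 fell, and at day 8 against day 0, 6 rose and 4 fell. These counts are close to the shares of all genes given above (12.1% and 13.1%, 10.1% and 12.3%, 20.6% and 22.8%). Of 27 further HIF pathway genes, 3 rose and 9 fell at day 2. At day 8 against day 2, 7 rose and 2 fell, and at day 8 against day 0, 8 rose and 5 fell. The mean signal of the 22 genes was 7.15, 7.17 and 7.18 on days 0, 2 and 8, with no low at day 2. That of the 27 genes was 8.42, 8.3 and 8.59, and every day 8 array (lowest 8.55) lay above every day 0 array (highest 8.47), unlike the 8 HIF targets of the set. Among these, Vegfa, the angiogenic factor and a HIF target, had 10.26, 10.29 and 10.73 at day 2 against 11.76, 11.65, 11.68, 11.36 and 11.77 at day 0 (-1.22, adjusted p = 1.07e-05). The HIF-induced repressor Bhlhe40 was lower at day 2 (-1.0) and at day 8 (-1.14) than at day 0, and Cited2, which competes with HIF for its coactivator, was lower at day 2 (-1.05).

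**Figure D5:**
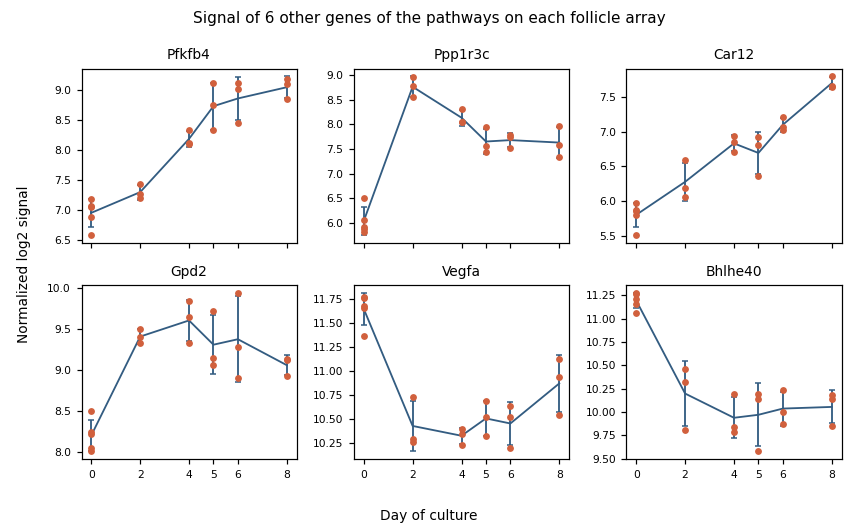
Normalized log2 signal of 6 further pathway genes on each follicle array (points) by day of culture, with the mean of the day (line) and SD (bars); each panel has its own vertical range. Pfkfb4 and Car12 are highest at day 8, Ppp1r3c is highest at day 2, Gpd2 stands above day 0 on every later day, and Vegfa and Bhlhe40 are highest at day 0.

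Rises among the further genes were led by Ppp1r3c, a scaffold that promotes glycogen synthesis, with 8.55, 8.78 and 8.96 at day 2 against 5.81 to 6.51 at day 0 (6.61-fold, adjusted p = 1.24e-09). It was lower at day 8 than at day 2 (-1.13) and still above day 0 (1.59). Pfkfb4, which makes the activator of phosphofructokinase and is a HIF target, had 9.18, 8.84 and 9.10 at day 8 against 7.19, 7.44 and 7.27 at day 2, and was 4.25-fold above day 0 (log2 change 2.09, adjusted p = 2.0e-08). Car12, a carbonic anhydrase related to Car9, went the opposite way to it, with a rise of 1.89 at day 8 against day 0 and of 1.42 against day 2. Gpd2, the mitochondrial glycerol phosphate dehydrogenase (1.21), and the glucose transporter Slc2a8 (0.61) rose at day 2.

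Ldhc, the lactate dehydrogenase of germ cells, was not above background at day 8, at least 7.78-fold lower than at day 0 (means 4.60 and 8.40, adjusted p = 8.27e-14) and at least 4.94-fold lower than at day 2. Bpgm, the red cell enzyme that makes bisphosphoglycerate, was not above background at day 8 and at least 2.04-fold lower than at day 0 (means 4.97 and 6.47, adjusted p = 3.0e-07). Zfp395, whose human counterpart is induced by hypoxia, was lower at day 8 than at day 2 (-1.21, adjusted p = 0.00704).

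Markers of several cell types changed over the same days. Signals are relative to the other RNA on an array. Fewer cells of a type, less RNA per cell and more RNA from other cells thus cannot be told apart in such samples. Of 10 oocyte markers 6 fell at day 2 against day 0 and all 10 at day 8 against day 0. Their mean signal lay between 11.79 and 11.93 on the day 0 arrays, 11.06 and 11.25 on the day 2 arrays, 8.78 and 9.96 on the day 6 arrays, and 9.72 and 9.86 on the day 8 arrays. All 4 red blood cell markers fell by day 2 and none was detected at days 4 and 5. All 3 markers of surface epithelium fell at day 2 and at day 8 against day 0, as did 2 and 3 of 3 smooth muscle markers. Of 8 granulosa markers 3 rose at day 2 and 4 rose and 1 fell at day 8 against day 0. Of 6 theca markers 1 rose and 1 fell at day 2 and 4 rose at day 8. Of 5 endothelial markers 1 rose and 2 fell at day 2 and 1 rose and 3 fell at day 8. Of 5 macrophage markers 1 rose and 1 fell at day 2 and 2 rose and 2 fell at day 8. Of all genes 12.1% rose and 13.1% fell at day 2, and 20.6% and 22.8% at day 8, each against day 0. Counts of 1 or 2 among so few markers, as for macrophages and for theca at day 2, do not stand out from these shares. The part of these shifts in the changes of glycolysis and HIF genes was not tested.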

How the data were processed

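Per the file headers, the deposited table held 1 intensity per probe and array, the mean over its beads without normalization, together with a standard error, a detection p-value and a bead number. The authors also deposited a table of log2 values of 23286 probes, whose normalization is not given in the sources used here. The intensities of the 20 follicle arrays went through neqc of limma 3.58.1 under R 4.3.3, which corrects background, adds an offset of 16, sets quantiles equal and returns log2 values. A probe was kept if its detection p fell below 0.05 on 3 or more arrays (14490 kept). Each symbol, brought up to date with RefSeq, was represented by its brightest probe on average (10688 genes). For 6 members several probes passed. One mean per day was fitted by lmFit and eBayes over all 20 arrays, and p-values were adjusted by Benjamini-Hochberg over all genes, with a threshold of 0.05. Values for other probes of a gene came from the same model fitted to all 14490 probes kept, with p-values adjusted over those probes. There the brightest Car9 probe did not pass at day 2 against day 0 (adjusted p = 0.055). Nor did that of Slc2a1 at day 8 against day 2 (0.0516) or of Pfkp at day 4 against day 2 (0.0549). Where all arrays of a day were not above background, a fold is a lower bound ("at least") against the lowest detected signal of each array, or the probe's own where higher. The members and lists were chosen with earlier results of these data known. Values on every array are given for members that passed with a log2 change of at least 1 and for those set against them by role; from the other pathway genes up to 3 rises and 3 falls per comparison with no overlap between arrays are named. One gene that this rule picks is not reported here. The fitting was tested on simulated data. The 5 arrays labelled brain reference were not used. The number of arrays limits the precision. On an array the median number of beads was 38 to 40, and the standard error of a probe had a median of 4.01% to 5.19% of its signal. Whether the replicate numbers pair the arrays was not settled. Deviations of same-numbered arrays of days 2 to 8 correlated at 0.016 on average (30 pairs, -0.423 to 0.559). Those of differently numbered arrays correlated at -0.00845 (60 pairs, -0.584 to 0.512). With such wide ranges these means cannot show whether arrays of 1 number share an experiment. Alternatives covered background correction, offset, scaling, filter, probe choice, array weights, the arrays fitted, the counting of day 0, a replicate block and leaving out each array.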

Additional observations from a re-analysis of the deposited data

Results flagged for a closer look

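For 3 of 29 genes 1 of the 5 day 0 arrays stood apart from the others by Dixon's test. Chance alone gives this for about 1 in 20 groups, but the 29 genes were read on the same arrays and are not independent. Day 0 replicate 4 had the highest day 0 mean of the 14 enzymes (9.99, others 9.65 to 9.69). It also had the lowest day 0 mean of the 8 HIF targets (7.30, others 7.46 to 7.60), and the reason was not tested. Eno1 had 12.38 on day 0 replicate 4, against 11.37 to 11.52 on the other day 0 arrays. Pfkp had 8.96 on the same array, against 7.85 to 8.11 on the others. Pgk1 had 5.37 on day 0 replicate 5, against 4.86 to 4.97 on the others, and was not above background on any of the 5. Days with 3 arrays were not tested in this way.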

How the results depend on the processing

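No call of a member changed sign in any alternative run. Of 59 calls, 59 were kept with array weights, 58 with an offset of 50, 58 with the mean of all probes, 56 without background correction, 55 without the filter on dim probes, 54 with median scaling and 53 with the arrays of the compared days alone; 58 of 58 were kept with a detection p under 0.01 and 46 of 50 with the authors' log2 table. With day 0 counted as 1 sample, 34 were kept, and 5 members changed at day 2 against day 0 and 5 at day 8 against day 0, fewer control samples entering the fit. The median change of HIF targets at day 8 against day 0 was -0.228 without background correction. It was -0.121 in the authors' log2 table, and -0.205 there at day 2 against day 0. That table lacks the brightest Car9 probe, and the cause of these differences was not tested. Array weights gave 1 member at day 5 against day 4 and 1 at day 6 against day 5 where the reported fit gave 0, and the share of probes detected as a term, chosen after seeing the data, gave 1 at day 8 against day 6. With a replicate block over all arrays 51 of 59 calls were kept, and over days 2 to 8 it kept 24 of 29; 8 of 15 cultured arrays correlated best with an array of their own number.

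Without each array in turn, members changed ran from 12 to 15 at day 2 against day 0, 15 to 17 at day 8 against day 2, 13 to 17 at day 8 against day 0, 8 to 13 at day 4 against day 2 and 0 to 0 in the later steps, and 21 to 23 differed over the 6 days. Enzyme medians ran from -0.439 to -0.226, 0.715 to 0.978 and 0.252 to 0.56 in the first 3 comparisons, and HIF target medians from -0.729 to -0.526, 0.123 to 0.439 and -0.604 to -0.457. Counts over all genes differed by more than 1.5 times in some settings: 4802 (array weights) and 498 (day 0 as 1 sample) against 2688 at day 2 against day 0, 3885 (array weights) against 2396 at day 8 against day 2, and 2113 with day 0 as 1 sample against 4637 at day 8 against day 0. At day 4 against day 2 there were 2321 (array weights), 1610 (share of probes detected as a term), 578 (arrays of the compared days alone), 558 (day 0 as 1 sample) and 520 (replicate block over days 2 to 8) against 897. The later steps had 102, 143 and 82 calls by limma in the reported fit and ran from 17 to 200, 0 to 246 and 3 to 254 over the settings. Median scaling moved the median of all genes at day 4 against day 2 to -0.166. Chip as a block was not run, since the headers give no chip. Probes near background, such as those of Adm, Pgk1, Hk1, Egln3 and Slc16a3, limit what could be seen.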
